A study of Mus musculus with 26 samples.

Results

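Id2 and Id3, which encode inhibitors of E proteins, and Tcf3, Tcf4 and Tcf12, which encode the E proteins E2A, E2-2 and HEB, were followed in mouse thymocytes during positive selection of CD8 T cells. These 5 genes were taken by their symbols from a table of 46517 gene symbols in 26 libraries of bulk RNA. All 5 passed the filter on low values, a normalized count of 10 or more in 2 or more libraries, which 16372 symbols passed. Thymocytes came from 3 lines of mice that carry rearranged αβ T cell receptor (TCR) transgenes restricted to MHC class I, which the study ranks by self-reactivity as TG6 (low), F5 (intermediate) and OT-1 (high). OT-1 mice were Rag2-deficient and F5 mice Rag1-deficient, both C57/BL6, whereas TG6 mice had intact Rag genes and came from a cross of C57/BL6 with B6.C-H2d/bByJ (H2b/d). Cells of each line were sorted into early positive selection (CD4+CD8+CXCR4+CCR7- cells), late positive selection (CD4+CD8+CXCR4-CCR7+ cells) and the mature CD8SP stage (CD4-CD8+CXCR4-CCR7+ cells). Each of the 9 groups held 3 libraries from 3 mice, except TG6 late positive selection with 2, and the study's methods give 1 common age range, young to adult, rather than the age of each mouse. Line, transgene, Rag genotype and MHC haplotype differ together, so their parts in a difference between lines cannot be told apart.

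E proteins are basic helix-loop-helix (bHLH) transcription factors that bind E box DNA as dimers. Id proteins hold the same dimerization domain without the basic region, so a dimer of an E protein and an Id protein does not bind DNA. In thymocytes, HEB and E2A maintain the CD4+CD8+ program, including Rag1, Rag2 and Ptcra, and TCR signals raise Id3 through ERK and Egr factors. Id2 and Id3 are both known to act in the maturation of CD8 lineage cells. The values below are transcripts, and the proteins were not measured.

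Because E boxes are the DNA that these proteins bind, the promoter windows of the members were searched for the letters CAGCTG and CAGGTG, and for the Egr motif GCGTGGGCG, on both strands. The windows are the 300 bases that run from 250 before to 50 after each RefSeq start on GRCm38.p6, and the 4 members other than Tcf4 were read, Tcf12 with 3 starts. CAGCTG stood in 16.3% of all 32851 windows, CAGGTG in 20.2% and the Egr motif in 0.612%. The letters CAGCTG were found once in the window of Id2 and once in that of the most upstream Tcf12 start, and none of the 3 motifs was found in the windows of Id3 and Tcf3. Both matches are shown in 30 bases, with the E box in capitals.
Id2, chr12:25096271-25096300, minus strand: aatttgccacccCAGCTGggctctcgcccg
Tcf12, chr9:72112040-72112069, minus strand: agatgctgccCAGCTGcgtccccgtcgcgg
The Id2 match begins 196 bases before the RefSeq start and lies in an intron of a longer annotated transcript of Id2. The Tcf12 match begins 240 bases before its start, upstream of the annotated gene. These are matches of letters, not measured binding, and Tcf12 was added to the search after its values were seen.

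Library totals lay between 16134786 and 18944173 normalized counts, with a median of 17159756. The T lineage genes Cd3e, Cd3d, Cd3g, Lck, Cd8a and Cd8b1 were expressed in every library. The Rag1 level in the Rag1-deficient F5 line was 10835 to 16266 normalized counts at early positive selection, and that of Rag2 in the Rag2-deficient OT-1 line was 176 to 291, so transcripts of the targeted genes were still counted. Of 9 markers of thymic epithelium and stroma, Foxn1, Krt5, Krt8 and Pdgfra stayed under 10 in every library, while Psmb11 stood at 8.88 to 42.3, Epcam at 10.2 to 47.7, Col1a1 at 9.09 to 78.3, Cdh5 at 0 to 22.6 and Pecam1 at 1799 to 3627. The summed levels of other marker lists ran from 120.8 to 331.9 for B cells, 59.0 to 312.1 for macrophages and dendritic cells, 3.83 to 124.5 for NK and innate lymphoid cells, 20.3 to 821 for erythroid cells and 1795 to 12747 for γδ T cells. Libraries of TG6 mature replicate 3 and F5 late replicate 2 stood apart by a summed level of 14 cell division genes of 74966 and 9525, against 19199 and 20901, and 804 and 839, in the other libraries of their groups. F5 replicate 1 stood apart in the Id genes and is described with them. Values without it are given beside several results of Id2 and Id3. It was chosen for its high Id levels, so lower Id levels of F5 without it follow from that choice, and leaving it out at all stages also narrows the estimate of the spread that comparisons of the other lines use.

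Differences between groups were fitted with limma on log2(value + 1), with p-values adjusted by the Benjamini-Hochberg method over all 16372 genes tested, and a call is an adjusted p under 0.05. From early to late positive selection, 4 of the 5 genes were called in TG6, where 25.4% of all genes tested were called. In F5 and in OT-1, 2 of 5 were called in this step, against 26.7% and 26.7% of all genes. From late positive selection to the mature stage, 1 of 5 was called in TG6 against 22.3% of all genes, 0 in F5 against 20.5%, and 1 in OT-1 against 24.4%. Between lines, OT-1 against TG6 gave 2 of 5 in early cells, where 27.8% of all genes were called, 0 in late cells (15.5%) and 0 in mature cells (9.74%). OT-1 against F5 gave 0 of 5 in early cells (12.7%), 1 in late cells (24%) and 1 in mature cells (23.3%). F5 against TG6 gave 0 of 5 in early cells (6.46%), 1 in late cells (4.97%) and 1 in mature cells (6.64%). These comparisons share groups, and each uses the same estimate of the spread. When the 9 groups were ordered by their mean, 4 of the 8 neighbouring pairs overlapped in their libraries for Tcf12, and 7 of 8 for each of the other members. No share over all genes is set beside this count, so it compares the members only with each other.

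**Figure D1:**
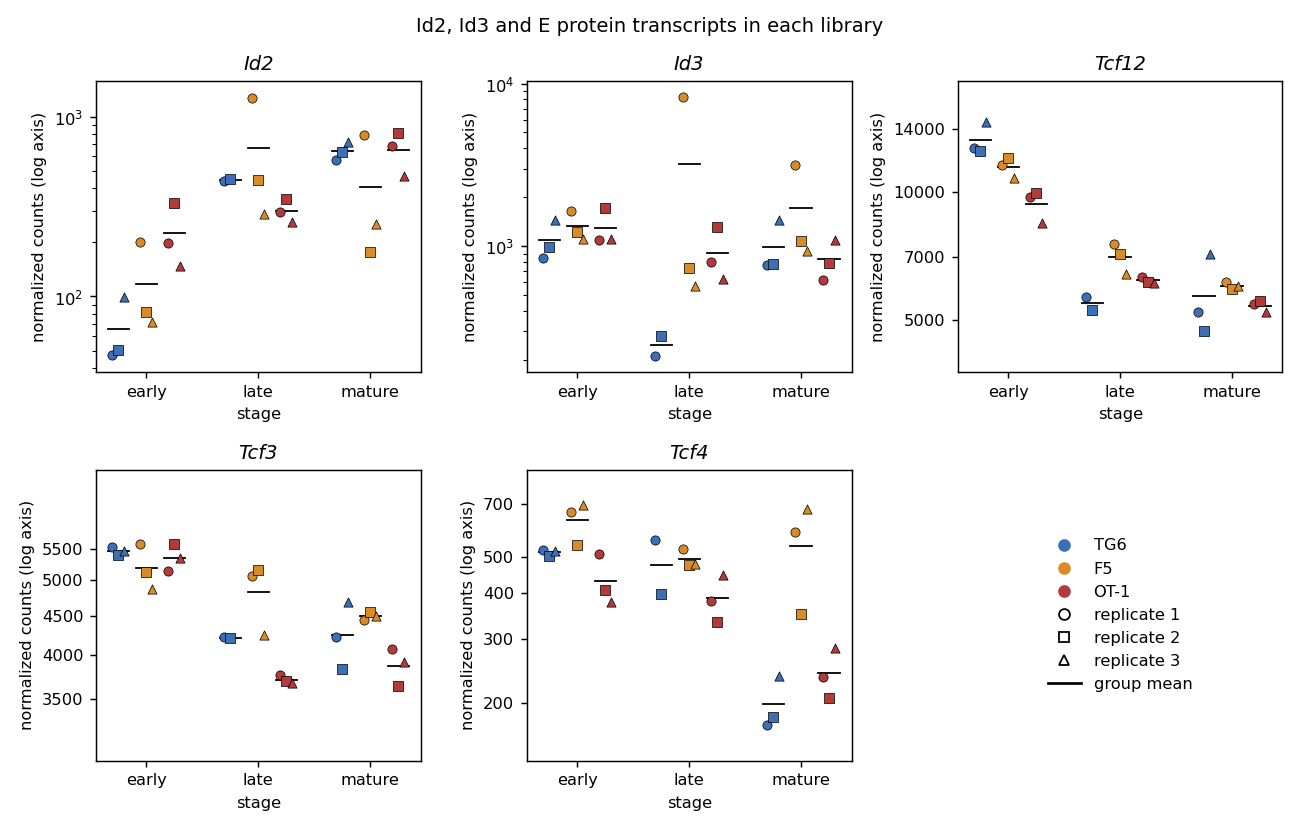
Normalized counts (log axis) of Id2, Id3, Tcf12, Tcf3 and Tcf4 in each library, by stage on the horizontal axis and line by color, with symbols for replicates and a bar at each group mean. Tcf12 lay between 8421 and 14545 in all early libraries and between 4706 and 7521 in all later ones, while Id3 of F5 late replicate 1 stood at 8291.

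Tcf12, which encodes HEB, the E protein best known in CD4+CD8+ thymocytes, fell from early to late positive selection in all 3 lines and was the member with the most ordered levels. At early positive selection its normalized counts were 12666, 12423 and 14545 in TG6, 11529, 11982 and 10777 in F5, and 9691, 9928 and 8421 in OT-1, given for replicates 1, 2 and 3 as in every list below. The 3 lines did not overlap at this stage, with TG6 highest and OT-1 lowest. At late positive selection the counts were 5656 and 5281 in TG6, 7521, 7140.3 and 6404 in F5, and 6311, 6139.6 and 6097 in OT-1, so every early library lay above every late one. In these bulk libraries, fewer cells with the transcript and less transcript per cell cannot be told apart. The fall was 2.41-fold in TG6 (log2 fold change -1.27, SE 0.12, limma adjusted p = 8.5e-08). It was 1.63-fold in F5 (-0.70, SE 0.11, adjusted p = 4.5e-05) and 1.51-fold in OT-1 (-0.59, SE 0.11, adjusted p = 0.00035).

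The lines differed in Tcf12 at the start of this step. OT-1 was 1.41-fold lower than TG6 at early positive selection (log2 fold change -0.50, SE 0.11, limma adjusted p = 0.0017). F5 lay between them, and neither its difference from TG6 (-0.21, 95% interval -0.43 to 0.02, adjusted p = 0.31) nor that of OT-1 from F5 (-0.29, 95% interval -0.52 to -0.07, adjusted p = 0.085) passed the threshold. The difference of OT-1 from F5 at this stage passed with libraries scaled to the same total (-0.39, adjusted p = 0.007), which moved the median of all genes by -0.097, and after quantile normalization (-0.42, adjusted p = 0.0098). Early OT-1 and TG6 cells also differed in the genes of the sort. Ccr7 stood at 648 to 863 normalized counts in OT-1 and at 112 to 199 in TG6. Cxcr4 stood at 1425 to 2898 in OT-1 and at 4598 to 5527 in TG6. The part of this in the Tcf12 level was not tested. The change of Tcf12 from early to late also differed between lines. Tcf12 fell less in OT-1 than in TG6 by 0.68 on the log2 scale (SE 0.16, adjusted p = 0.031), the only member called in this difference, where 2.04% of all genes were called. That call was lost when any of 8 of the 11 libraries concerned was left out, among them both TG6 late libraries, with an adjusted p of up to 0.18. With the replicate number as a block, taken to mark the mouse, the difference between F5 and TG6 was also called (0.51, adjusted p = 0.029, against 0.081 without it), where 2.08% of all genes were called without the block and 0 of 5 members.

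In mature cells Tcf12 stood at 5224, 4706 and 7114 in TG6, 6127, 5903 and 6005 in F5, and 5436, 5538 and 5197 in OT-1. The lines overlapped here, and no step from late positive selection to the mature stage was called in the fit described above. In OT-1 this step was -0.20, and it passed with libraries scaled to the same total (-0.26, adjusted p = 0.048), where the median of all genes was -0.085 against -0.025 as reported, and in a fit of these groups alone (-0.20, adjusted p = 0.029). TG6 mature replicate 3, the library with the high cell division genes, was also the highest of the stage. All 14 cell division genes fell from early to late positive selection in every line, with sums of 50916 to 105207 in early libraries and 804 to 9525 in late ones. They rose again to 19199 to 90964 at the mature stage, where Tcf12 did not return to its early level in any library. Their part in the change of Tcf12 was not tested. The Tcf12 gene (ENSMUSG00000032228.16, chr9:71842688-72111871, minus strand, GRCm38, GENCODE vM21) overlaps 11 smaller gene models, of which Gm38057 on the same strand reached 569.5 normalized counts, and reads of both genes cannot be assigned with certainty where they overlap.

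Tcf3, which encodes E2A, was the steadiest member, with a highest level 1.53 times the lowest over the 26 libraries. At early positive selection it stood at 5529.8, 5402 and 5469 in TG6, 5575, 5121 and 4870.5 in F5, and 5146, 5572 and 5347 in OT-1, with overlap between all lines. At late positive selection it stood at 4216 and 4202 in TG6, 5070.4, 5163 and 4251 in F5, and 3761, 3698 and 3677 in OT-1. All OT-1 late libraries lay below every other late library, and all F5 late libraries above. The log2 fold change was -0.53 in OT-1 (SE 0.08, limma adjusted p = 5.3e-05) and -0.38 in TG6 (SE 0.09, adjusted p = 0.0031). In F5 the change was -0.11 (95% interval -0.28 to 0.06, adjusted p = 0.37). OT-1 was lower than F5 in late cells (-0.37, SE 0.08, adjusted p = 0.0016).

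The fall of Tcf3 in OT-1 exceeded that in F5 by 0.42 on the log2 scale, which missed the threshold without a replicate block (SE 0.11, limma adjusted p = 0.063, where 1.68% of all genes and 0 of 5 members were called) and passed it with the block (adjusted p = 0.015) and under a filter on a mean of at least 50 (adjusted p = 0.046). Mature cells held Tcf3 at 4221, 3830.4 and 4689 in TG6, 4436, 4549.7 and 4491 in F5, and 4067, 3639 and 3915 in OT-1. OT-1 was again the lower of OT-1 and F5 without overlap, at an adjusted p of 0.058 (-0.22, 95% interval -0.38 to -0.05). That difference passed with libraries scaled to the same total (-0.36, adjusted p = 0.0015), where the difference from TG6 at late positive selection also passed (-0.32, adjusted p = 0.011). That scaling put the medians of all genes at -0.127 and -0.129 in these comparisons, so OT-1 was lowered alike over all genes. The mature difference from F5 also passed under a filter on a mean of at least 50 (-0.22, adjusted p = 0.044). It passed after quantile normalization (-0.29, adjusted p = 0.014) and without TG6 mature replicate 3 and F5 late replicate 2 (-0.22, adjusted p = 0.025). The gene (ENSMUSG00000020167.14) lies at chr10:80409514-80433647 on the minus strand.

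Tcf4, which encodes E2-2, the E protein best known from plasmacytoid dendritic cells, was not called from early to late positive selection and fell at the last step in TG6 and OT-1. In early cells its normalized counts were 524, 505 and 519.5 in TG6, 667, 541 and 694 in F5, and 510.5, 408 and 378 in OT-1. Those of late cells were 557 and 399, then 526, 476 and 479, and 381, 333 and 448 in the same order of lines. In F5 every late library lay below every early one, at a log2 fold change of -0.35 (95% interval -0.77 to 0.06). No early to late step and no line comparison at these stages was called without a change of scaling. In mature cells Tcf4 stood at 174, 184 and 238 in TG6 and 236, 207 and 284 in OT-1, against 587, 350.4 and 676 in F5. Every F5 mature library lay above every mature library of the other lines. From late positive selection to the mature stage Tcf4 fell 2.39-fold in TG6 (log2 fold change -1.25, SE 0.22, limma adjusted p = 0.00033, and 0.055 in a fit of these groups alone). It fell 1.60-fold in OT-1 (-0.68, SE 0.20, adjusted p = 0.017), a call that was lost without OT-1 late replicate 3 or OT-1 mature replicate 2, with an adjusted p of up to 0.08.

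Mature F5 cells exceeded mature TG6 cells 2.62-fold in Tcf4 (log2 fold change 1.39, SE 0.20, limma adjusted p = 5.1e-05), a call that was lost in a fit of these groups alone (adjusted p = 0.072), and OT-1 was 2.15-fold lower than F5 (-1.11, SE 0.20, adjusted p = 0.00048). The difference between F5 and TG6 in the last step was 1.33 on the log2 scale (SE 0.30). It missed the threshold without a replicate block (adjusted p = 0.11, where 0.116% of all genes and 0 of 5 members were called), and passed it with the block (1.36, adjusted p = 0.018) and without F5 mature replicate 2 (1.61, adjusted p = 0.009). Among 8 markers of plasmacytoid dendritic cells, Siglech and Klk1 stood at 4.96 to 12.6 and 0 to 3.78 normalized counts in the F5 mature libraries, and at 4.32 to 15.3 and 1.97 to 3.05 in the TG6 mature libraries. The summed level of the list, which is carried by Ccr9 and Pacsin1 that thymocytes also express, was 12669 to 13468 in the former and 9235 to 15906 in the latter. Siglech was highest in the early OT-1 libraries, at 36.9, 73.5 and 19.2. The part of such cells in the Tcf4 level was not tested. The gene (ENSMUSG00000053477.17) lies at chr18:69343356-69689079 on the plus strand.

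**Figure D2:**
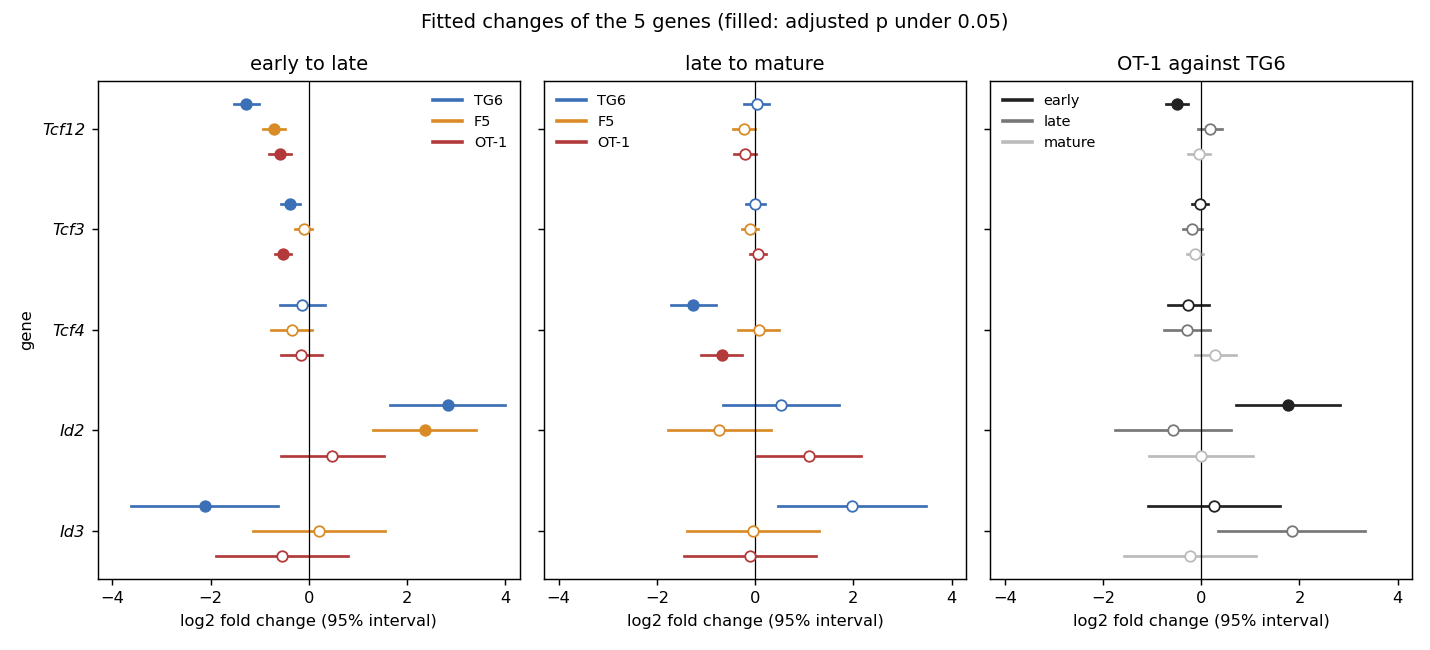
Fitted log2 fold changes of the 5 genes with 95% intervals, for early to late positive selection and late positive selection to the mature stage in each line, and for the OT-1 to TG6 comparison of every stage. Filled points have an adjusted p under 0.05, as Tcf12 in all 3 lines in the left panel, and the intervals of Id2 and Id3 are wider than those of Tcf12 and Tcf3.

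Id2, the Id gene that rises most with T cell maturation, rose from early to late positive selection in TG6 and F5. Its early level in OT-1 already exceeded that of TG6, whereas the difference from F5 was not called in the fit of all groups. At early positive selection its normalized counts were 47.5, 50.7 and 98.7 in TG6, 199.7, 82.2 and 71.8 in F5, and 199, 330.3 and 148 in OT-1. Every OT-1 early library lay above every TG6 early library, and F5 overlapped both lines. OT-1 exceeded TG6 3.40-fold (log2 fold change 1.77, SE 0.51, limma adjusted p = 0.013), whereas F5 against TG6 gave 0.76 (95% interval -0.29 to 1.82, adjusted p = 0.45). The call between OT-1 and TG6 was lost without TG6 early replicate 1, TG6 early replicate 2 or OT-1 early replicate 2, with an adjusted p of up to 0.074 and a difference of at least 1.45. Markers of other cells also differed between these libraries. Tyrobp of NK and myeloid cells stood at 43.0, 48.2 and 12.8 normalized counts in OT-1 against 0.990 to 4.84 in TG6, and the sums of the macrophage and dendritic cell markers at 144.5 to 312.1 against 75.7 to 120.3. The sums of the γδ T cell markers, carried by Trdc, stood at 9133 to 10169 against 1837 to 2130, and at 8881 to 10046 in early F5 cells. OT-1 and F5 are Rag-deficient and TG6 is not, so Rag genotype and this sum differ together. Of the same list, Sox13 and Tcrg-C1 were higher in early OT-1 than in early F5 cells (log2 fold changes 6.34 and 3.9, limma adjusted p = 8.3e-10 and 0.00012). Tcrg-C2 and Trdc were not called there. The sums of the B cell markers were lower in OT-1 than in TG6, at 125.7 to 140 against 205.7 to 331.9. Ccr7 and Cxcr4 of the sort differed between early OT-1 and TG6 cells too, as given with Tcf12. The part of all these in the Id2 level was not tested. The difference of OT-1 from F5 at this stage was 1.01 (adjusted p = 0.21), and without F5 early replicate 1 it was 1.46 (adjusted p = 0.084, and 0.0054 without that mouse at all stages).

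In late cells Id2 stood at 438 and 452 in TG6, 1260.1, 447 and 287 in F5, and 294, 348 and 259.5 in OT-1. The order of OT-1 and TG6 was thus turned, with every OT-1 late library below both TG6 late libraries, although the difference was not called (adjusted p = 0.54). From early to late, Id2 rose 7.08-fold in TG6 (log2 fold change 2.82, SE 0.57, limma adjusted p = 0.00064) and 5.12-fold in F5 (2.35, SE 0.51, adjusted p = 0.0013). Without F5 late replicate 1 the step in F5 was 1.75 (adjusted p = 0.014). In OT-1 the change was 0.48 (95% interval -0.57 to 1.54, adjusted p = 0.54), and the early and late libraries overlapped. The difference between the OT-1 and TG6 changes was -2.34 (SE 0.76, adjusted p = 0.14). It was called with the mouse as a replicate block (-2.43, adjusted p = 0.013), in a fit of those lines alone (adjusted p = 0.02) and without F5 replicate 1 (adjusted p = 0.0072). The block also made the difference between the OT-1 and F5 changes pass (-1.87, adjusted p = 0.042).

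In mature cells Id2 stood at 576, 634 and 721 in TG6, 792, 177 and 254 in F5, and 682, 814 and 469 in OT-1. Every TG6 mature library lay above both TG6 late libraries, and every OT-1 mature library above every OT-1 late library. The last step in OT-1 was 1.10 (SE 0.51, limma adjusted p = 0.12), and it was called with the replicate block (adjusted p = 0.026) and in a fit of these groups alone (adjusted p = 0.016). With the mouse as a fixed block, a fall of 0.73 on the log2 scale was called in F5 (adjusted p = 0.012). The difference of F5 from TG6 at the mature stage was -0.96 (adjusted p = 0.35), and without F5 mature replicate 1 it was -1.59 (adjusted p = 0.065, and 0.005 without that mouse at all stages). That of OT-1 from F5 was 0.95 (adjusted p = 0.18), and 1.59 without the same library (adjusted p = 0.03, and 0.0026 at all stages). Of 5 markers of NK and innate lymphoid cells, which use Id2, the NK receptor gene Ncr1 was at 0 in every library, and Tyrobp reached 48.2, Fcer1g 17.7 and Klrb1c 15.3. Their summed level at the mature stage was 48.0 to 71.3 in TG6, 8.79 to 19.1 in F5 and 84.7 to 124.5 in OT-1. It was at most 124.5 in any library, and it was highest at the mature stage in OT-1 through Eomes, which maturing CD8 cells also express. The part of such cells in the Id2 level was not tested. The gene (ENSMUSG00000020644.9) lies at chr12:25093799-25097140 on the minus strand.

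Id3, the Id gene that TCR signals raise through Egr factors, was lowest in TG6 at late positive selection. At early positive selection its normalized counts were 839, 981 and 1445 in TG6, 1634, 1228 and 1110.3 in F5, and 1086, 1704 and 1107 in OT-1, with overlap between all lines. At late positive selection they were 209.9 and 279.7 in TG6, 8291, 735 and 567 in F5, and 797, 1317 and 625 in OT-1. Both TG6 late libraries lay below all other 24 libraries. In mature cells Id3 stood at 766, 779 and 1439 in TG6, 3139.7, 1070.2 and 939.5 in F5, and 615, 786 and 1092 in OT-1, with overlap again.

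In TG6, Id3 fell 4.36-fold from early to late (log2 fold change -2.12, SE 0.72, limma adjusted p = 0.034). The call was lost without TG6 early replicate 2 or 3 or either TG6 late library, with an adjusted p of up to 0.19, and also with no filter on low values (0.055) and with no trend in the prior variance (0.052). In F5 the change was 0.21 (95% interval -1.13 to 1.56, adjusted p = 0.86), and without F5 late replicate 1 it was -1.01 (adjusted p = 0.087). In OT-1 it was -0.55 (95% interval -1.89 to 0.80, adjusted p = 0.59). From late positive selection to the mature stage Id3 was 3.91-fold higher in TG6, just outside the threshold (1.97, SE 0.72, adjusted p = 0.055). That step was called with the replicate block (1.85, adjusted p = 0.023), in a fit of these groups alone (adjusted p = 0.044) and without F5 replicate 1 (adjusted p = 0.00027). In F5 the last step was -0.04 (adjusted p = 0.98). Without F5 late replicate 1 it was 1.18 (adjusted p = 0.053), and 0.63 without that mouse at all stages (adjusted p = 0.25). In OT-1 the last step was -0.105 (adjusted p = 0.93).

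Between lines, F5 exceeded TG6 in Id3 at late positive selection (log2 fold change 2.64, SE 0.72, limma adjusted p = 0.035). Without F5 late replicate 1 the difference was 1.41 (adjusted p = 0.097, and 0.027 without that mouse at all stages). The adjusted p was 0.27 without TG6 late replicate 1 and 0.15 without TG6 late replicate 2, and a fit of these groups alone gave an adjusted p of 0.41. The difference of OT-1 from TG6 at the same stage was 1.84 (SE 0.72, adjusted p = 0.093), without overlap of their libraries, and it passed without the mouse F5 replicate 1 (adjusted p = 0.00066) and in a fit of these groups alone (adjusted p = 0.024). In the differences of the last step, OT-1 against TG6 gave 0 of 5 members called where 1.17% of all genes were called, and OT-1 against F5 gave 0 of 5 where 0.843% were called. Without F5 replicate 1, the last step of Id3 differed between OT-1 and TG6 (-2.07, adjusted p = 0.019). The gene (ENSMUSG00000007872.3) lies at chr4:136143497-136145755 on the plus strand.

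The Id genes varied together between libraries of the same group. In 8 of the 9 groups the same library was the highest for Id1, Id2 and Id3, the exception being OT-1 at the mature stage. Over the 26 libraries, the log2 differences from the group means correlated at r = 0.78 between Id2 and Id3, 0.83 between Id2 and Id1 and 0.74 between Id3 and Id1, as a description of points that share mice and libraries. For the E proteins the same measure was 0.64 between Tcf3 and Tcf12 and 0.14 between Tcf3 and Tcf4. Between Id and E protein genes it was 0.45 for Id2 and Tcf12, 0.43 for Id3 and Tcf12, 0.37 for Id2 and Tcf3 and 0.39 for Id3 and Tcf3. Much of the range came from the F5 mouse with replicate number 1, which was the highest F5 library for Id1, Id2 and Id3 at all 3 stages. Its late library held 12.7 times the mean of the other F5 libraries in Id3, 7.82 times in Id1 and 3.43 times in Id2. The corresponding ratios were 1.08 for Tcf3, 1.10 for Tcf4 and 1.11 for Tcf12. That library held 2.41 times the mean of the others in Ccr7, a marker used in the sort, and the part of this in the Id levels was not tested. Its Mki67 level, a gene that dividing cells express, was 126.6 normalized counts, against 3139 and 109 in replicates 2 and 3.

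**Figure D3:**
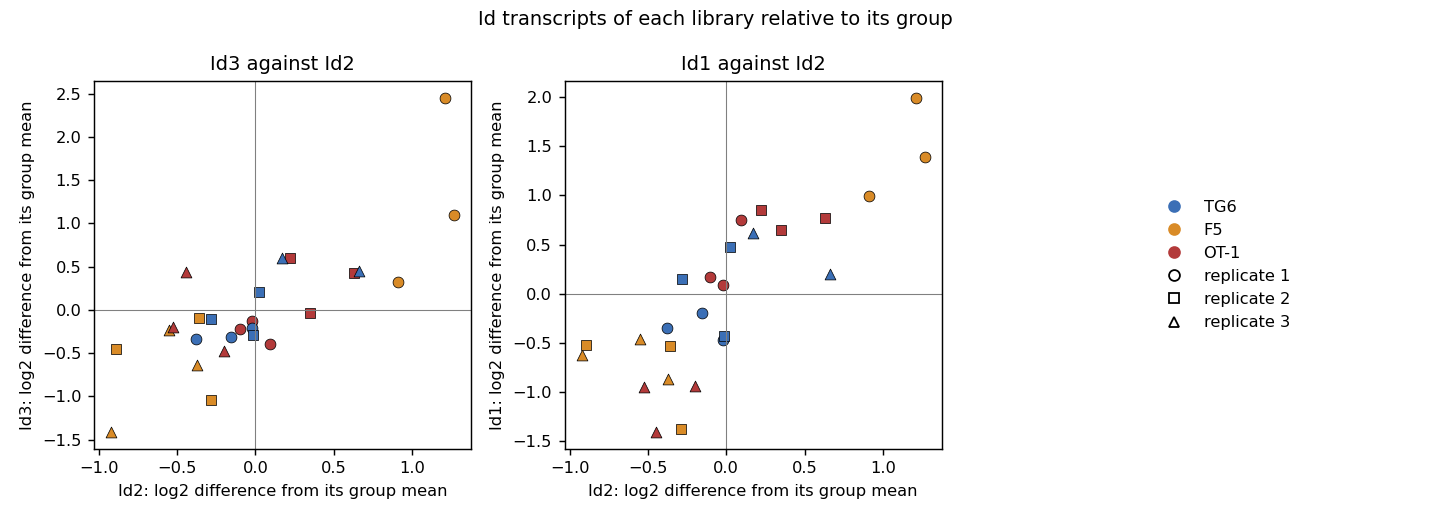
Log2 difference of each library from its group mean for Id3 (left) and Id1 (right) against Id2, with lines by color and replicates by symbol. The F5 replicate 1 libraries stand at the upper right in both panels, and r over the 26 libraries is 0.78 for Id3 and 0.83 for Id1.

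Id1, the other Id gene that passed the filter, was low, with a median of 28.5 normalized counts. It was called in OT-1 against F5, lower in OT-1 both in late cells (-2.25, SE 0.77, limma adjusted p = 0.037) and in mature cells (-2.58, SE 0.77, adjusted p = 0.019). Without F5 replicate 1 at all stages these differences were -1.26 (adjusted p = 0.16) and -1.89 (adjusted p = 0.043). Both calls were lost in fits of the groups alone (adjusted p = 0.16 and 0.085). The late call was also lost without F5 late replicate 1 (adjusted p = 0.22), without OT-1 late replicate 1 or 3 (up to 0.15), with no filter (0.064) and with no trend (0.05 after rounding), and the mature call without F5 mature replicate 1 or OT-1 mature replicate 3 (0.11 each). Id4 was at most 1.03 in any library.

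Levels of different genes were compared per kb of the longest annotated transcript of each gene, with no test. On this scale Tcf12 made up 52.2% ± 2.12 (SD, n = 3) of the sum of Tcf3, Tcf4 and Tcf12 in TG6 at early positive selection, 49.8% ± 1.60 (n = 3) in F5 and 44.3% ± 2.15 (n = 3) in OT-1. In late cells its share was 36.9% ± 0.874 (n = 2) in TG6, 39.7% ± 1.01 (n = 3) in F5 and 42.9% ± 0.231 (n = 3) in OT-1. The order of the lines in the Tcf12 share was thus opposite at both stages, with no overlap between TG6 and OT-1 at either. At the mature stage the shares were 37.9% ± 2.81, 37.6% ± 0.564 and 39.0% ± 1.88 (n = 3 each), which overlapped. Tcf4 made up 0.891 to 3.09% of the sum in every library, and Tcf3 the rest.

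Id3 per kb exceeded Id2 per kb at early positive selection by far, with 96.3% ± 0.513 (SD, n = 3) of the sum of Id2 and Id3 in TG6, 94.8% ± 1.88 (n = 3) in F5 and 90.1% ± 1.71 (n = 3) in OT-1. In TG6 at late positive selection this share was 42.5% and 48.8% in the 2 libraries, so Id2 was the more abundant Id transcript per kb there and in no other library. F5 late libraries held 71.7 to 91.0% and OT-1 late libraries 78.8 to 85.4%. At the mature stage the share was 69.4% ± 5.35 in TG6, 87.1% ± 2.81 in F5 and 65.4% ± 11.1 in OT-1 (n = 3 each).

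The E protein sum over the Id sum, per kb, was 4.75 ± 1.12 (SD, n = 3) in early TG6 cells, 3.42 ± 0.577 (n = 3) in early F5 cells and 3.08 ± 0.647 (n = 3) in early OT-1 cells. It was 6.19 and 5.15 in the TG6 late libraries, the highest of their stage, against 1.88 to 3.65 in OT-1. F5 late libraries ran from 0.417 in replicate 1 to 4.26 in replicate 3. At the mature stage the ratio was 2.21 ± 0.358 in TG6, 2.19 ± 1.13 in F5 and 2.27 ± 0.408 in OT-1 (n = 3 each), and the lines overlapped. With the merged length of all exons in place of the longest transcript, the Tcf12 share was 38.2% in early and 24.9% in late TG6 cells, so whether Tcf12 or Tcf3 is the more abundant in early TG6 cells depends on the length used. In early OT-1 cells Tcf3 was the more abundant with the longest transcript too, at 54.2% ± 2.32 (SD, n = 3) of the sum.

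**Figure D4:**
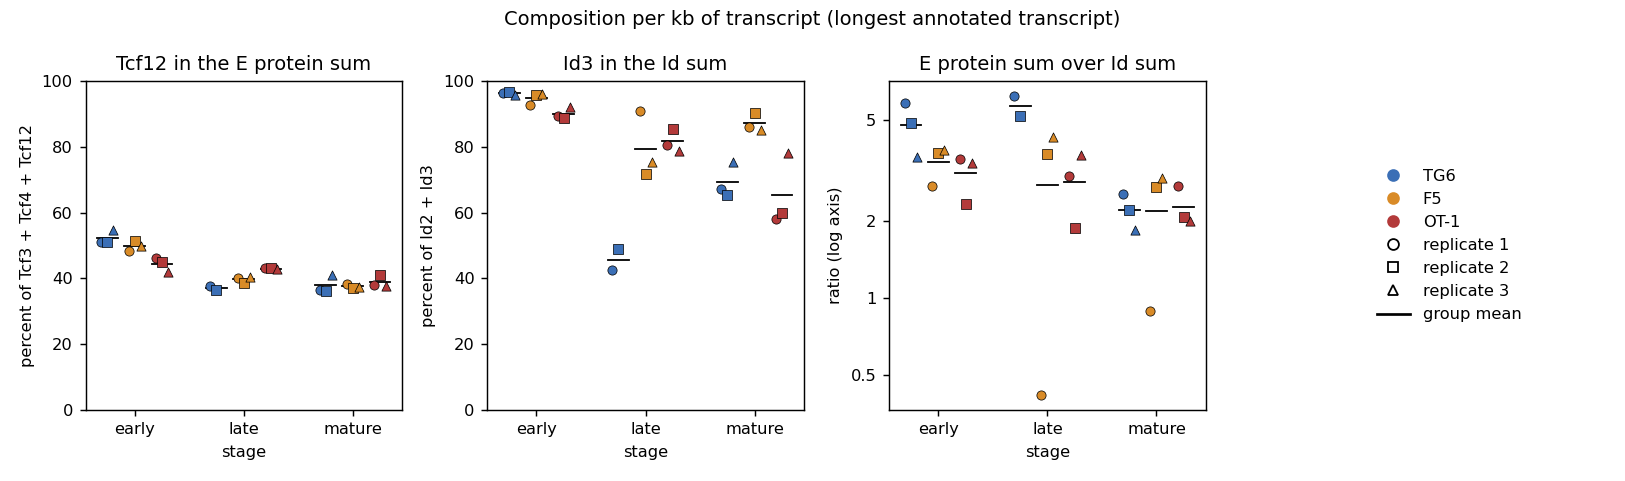
Share of Tcf12 in the E protein sum, share of Id3 in the Id sum, and E protein sum over Id sum (log axis) in each library, all per kb of the longest annotated transcript, by stage and line with a bar at each group mean. The 2 TG6 late libraries hold Id3 shares of 42.5 and 48.8%, below all others, and F5 late replicate 1 has the lowest ratio, 0.417.

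The 8 thymocyte genes of a list of genes that E proteins are known to activate were examined beside the members, namely Rag1, Rag2, Ptcra, Cd4, Notch1, Socs1, Socs3 and Foxo1. From early to late positive selection, 5 of 8 fell in TG6, where 13.3% of all genes were called lower, with a list median of -1.98 against 0 for all genes. In F5 4 of 8 fell (14% of all genes lower, medians -0.88 and 0.04), and in OT-1 4 of 8 fell (14%, medians -1.24 and 0.02). Rag1, a subunit of the recombinase, changed by -8.27 on the log2 scale in TG6 (SE 0.98, limma adjusted p = 1.5e-06), -5.94 in F5 and -7.02 in OT-1. Ptcra, the pre-TCR α chain, changed by -5.20 in TG6, -4.09 in F5 and -4.33 in OT-1. Rag1 is a targeted gene in F5 and Rag2 in OT-1. Against this, 2 of 8 rose in each line, where 12.1% of all genes were called higher in TG6, 12.7% in F5 and 12.7% in OT-1. They were Foxo1, a factor of T cell quiescence and homing (1.22, 1.26 and 1.18), and Socs3, a cytokine signal inhibitor (1.5, 1.91 and 1.12). These counts were 3 to 6 lower and 2 higher under every alternative run.

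Between OT-1 and TG6 at early positive selection, 5 of the 8 genes were lower in OT-1 and 0 higher, against 12.4% and 15.4% of all genes, with medians of -1.3 and 0. They were Rag2 (-3.44, SE 1.00, limma adjusted p = 0.013), Rag1 (-3.34, SE 0.88, adjusted p = 0.007), Cd4, Socs1 and Socs3. Rag1 stood at 51114 to 58364 normalized counts in TG6 and 4304 to 6987 in OT-1. OT-1 is Rag2-deficient. The early cells of these lines also differed in the genes of the sort, with Ccr7 5.39-fold higher in OT-1 (adjusted p = 1.8e-05) and Cxcr4 2.66-fold lower (adjusted p = 0.018), and in all 4 markers of γδ T cells, among them Sox13 at 2339 to 2472 normalized counts in OT-1 and 25.1 to 108.7 in TG6. The part of these in the lower levels was not tested. In late cells 2 of 8 were lower in OT-1 and 0 higher, against 6.21% and 9.34% of all genes, and at the mature stage 1 of 8 was lower and 0 higher, against 5.08% and 4.67%. Socs3 was the gene lower at all 3 stages.

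**Figure D5:**
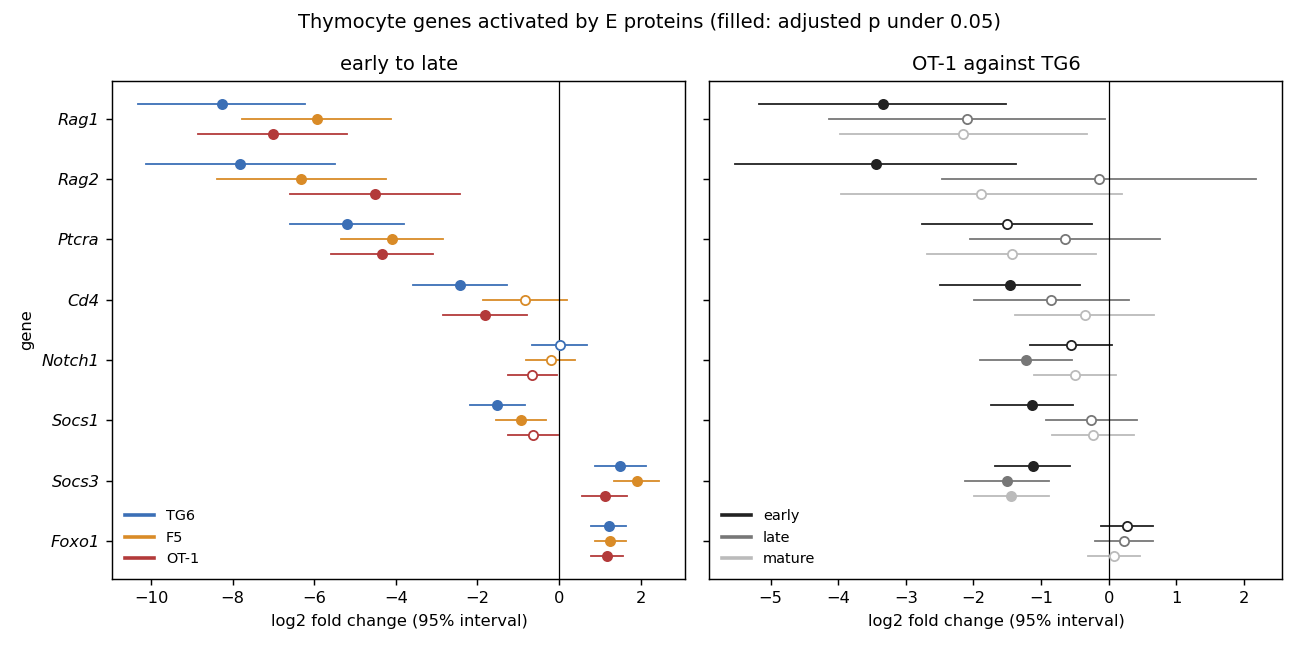
Fitted log2 fold changes with 95% intervals of 8 thymocyte genes activated by E proteins, for early to late positive selection in each line and for the OT-1 to TG6 comparison of every stage, filled where the adjusted p is under 0.05. Rag1, Rag2 and Ptcra lie far below 0 in all lines in the left panel, while Socs3 and Foxo1 lie above 0.

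Of 8 genes upstream of Id genes (Egr1, Egr2 and Egr3, the TCR-induced factors, and Smad1, Smad4, Smad5, Bmpr1a and Bmpr2 of BMP signalling), 2 were called from early to late in TG6, 1 in F5 and 2 in OT-1. Egr1 stood at 1901, 1521 and 1133 normalized counts in early OT-1 libraries and at 749, 542 and 281 in early TG6 libraries, without overlap (log2 fold change 1.61, SE 0.34, limma adjusted p = 0.0014), and OT-1 was also above TG6 in late cells (1.43, SE 0.39, adjusted p = 0.014). The difference of Id3 between these lines was 0.26 in early cells and 1.84 in late cells, and neither was called in the fit of all groups, while the late one passed under the alternatives given above. Egr3 rose from early to late in TG6 (1.74, SE 0.46, adjusted p = 0.007) and in OT-1 (2.93, SE 0.41, adjusted p = 2.2e-05). The part of Egr factors in the Id3 level was not tested. Over the list, 1 of 8 was called higher and 1 lower in this step in TG6, against 12.1% and 13.3% of all genes. In F5 1 was higher and 0 lower, and in OT-1 2 and 0, against 12.7% higher and 14% lower in each of these lines.

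Of 8 coactivators and corepressors of E proteins, 7 passed the filter. Cbfa2t3 (ETO2, a corepressor) fell in this step in every line, with log2 fold changes of -5.04 in TG6 (SE 0.58, limma adjusted p = 9.5e-07), -3.65 in F5 and -3.54 in OT-1. Kat2a (GCN5, an acetyltransferase) changed by 1.07, 0.47 and 0.85, so that 1 of 7 was called higher in each line, and 2, 1 and 2 of 7 lower. Of 10 tissue-restricted bHLH and LMO partners, 5 passed the filter, of which 2 rose and 1 fell in TG6, 2 rose and 2 fell in F5, and 1 rose and 2 fell in OT-1. Of all genes, the shares called higher and lower in this step were 12.1% and 13.3% in TG6 and 12.7% and 14% in F5 and in OT-1. Ldb1, which bridges LMO complexes, rose early to late in all lines (0.47, 0.76 and 0.32), and Lmo4 fell (-0.82, -0.65 and -1.35). Tal1, a partner and antagonist of E proteins in thymocytes, was at 0 in all TG6 early libraries and at 7.79 and 14.0 normalized counts in the TG6 late ones, and it rose in F5 (3.46, SE 0.79, limma adjusted p = 0.0022).

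By Pearson correlation of the 9 group means, among 9905 genes with a mean of at least 100, the genes most like Tcf12 were Stxbp4 (r = 0.99), Eci2 (0.99) and Ctsl (0.98). Those most like Tcf3 were Cox11, Zfp703 and Rdh12 (0.97 to 0.98), and those most like Tcf4 were Oaz2, Cpne8 and Sec63 (0.92 to 0.93). Those most like Id2 were Vcpkmt, Eno1 and Dcaf7 (0.97 to 0.98), and those most like Id3 were Adipor1, Scoc and Zfp282 (0.91 to 0.93). Between members, r was 0.86 for Tcf3 and Tcf12, -0.93 for Id2 and Tcf12 and -0.26 for Id2 and Id3, of which the last 2 have the opposite sign among the differences of libraries from their group means. These describe 9 points that share lines and stages. Over the 26 libraries the members and these genes had lower values, down to 0.36 for Zfp282 with Id3, 0.44 for Rdh12 with Tcf3, 0.58 for Cpne8 with Tcf4, 0.71 for Vcpkmt with Id2 and 0.84 for Stxbp4 with Tcf12.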

How the data were processed

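RNA was extracted from sorted thymocytes with a Zymo Quick-RNA Microprep kit and sequenced at BGI. Per the labels and the study's methods, reads were trimmed with Trimmomatic 0.32, aligned to mm10 with Bowtie2 2.3.2 and estimated per gene with RSEM 1.2.31. The deposited signal values are these estimates as normalized by the authors with DESeq2 (version not given in the sources used here) by the median of ratios. They are neither raw counts nor corrected for length, and raw depth cannot be recovered from them. They fix the typical gene at no change, so differences are relative to it.

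Since a count test was planned and the values are normalized, limma 3.58.1 (R 4.3.3) was used instead, on log2(value + 1), with 9 group means, a trended prior variance and Benjamini-Hochberg adjustment over the 16372 symbols that reached 10 in 2 libraries or more. Fold changes on this scale are understated for low genes. The script was tested on simulated data. Every p-value is two-sided and from this model, or, where the text names an alternative, from the same model refitted under it. The 26 columns all mapped to samples, those of both TG6 late libraries by line, letter and number, since their names lack 1 character of the titles. The members and gene lists were chosen with earlier results of these data known. A gene of the list of E protein targets and a marker gene of the lists are not reported here, and counts and medians are given without them. Named genes were the members, a part of the listed genes, called or not, a gene that overlaps Tcf12, and the 3 genes most like each member.

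The series' design text gives 3 mice per line, sorted into 3 populations, and the labels number biological replicates, so libraries of a line with the same number were taken as 1 mouse, which no label states. Their deviations from the group means correlated at 0.106 to 0.34 in F5, 0.019 to 0.178 in OT-1 and 0.023 to 0.274 in TG6, where the pairs with a late library were at 0.023 to 0.051. A replicate block, random (correlation 0.28) or fixed, was an alternative. Others changed the pseudocount, filter, scaling, prior and groups fitted, left out each library, and, chosen after seeing the data, left out F5 replicate 1 at all stages, or TG6 mature replicate 3 with F5 late replicate 2. Levels per kb used transcript lengths of GENCODE vM21, and promoters were read from RefSeq.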

Additional observations from a re-analysis of the deposited data

Results flagged for a closer look

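The fall of Tcf12 from early to late positive selection differed between OT-1 and TG6 by 0.677 on the log2 scale (SE 0.16, 95% interval 0.34 to 1.02, limma adjusted p = 0.031), tested as a difference of changes in the fit across all genes. The step was -1.27 in TG6 and -0.59 in OT-1, and 2.04% of all genes were called in this difference. The call was lost with no filter on low values (adjusted p = 0.051), with no trend in the prior variance (0.061) and without any of 8 libraries in turn, where the value ran from 0.604 to 0.727 and the adjusted p from 0.051 to 0.18.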

How the results depend on the processing

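None of the 17 called results of members turned its direction under the alternatives run. Of their 198 values under alternatives other than leaving out 1 library, 189 stayed past the threshold, and of 101 values without 1 library 81 did. Of 105 results of members, 88 were not called. Of 32 of these that are named or that passed under 1 or more alternatives, 47 of 369 values passed under alternatives other than leaving out 1 library. Directions turned in 24 of the 88, and the largest value that turned was -0.799 for Id3 in OT-1 against F5 in late cells, against 0.428 without F5 replicate 1. Of the 32, those that turned were Id3 in F5 from early to late (0.21, against -0.854 without F5 replicate 1 at all stages, and -1.01 without F5 late replicate 1 to 0.919 without F5 late replicate 3) and Tcf12 in F5 against TG6 at the mature stage (0.10, against -0.02 without TG6 mature replicate 2 to 0.278 without TG6 mature replicate 3, where the adjusted p was 0.049). The cause was not tested.

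The number of the 5 members called moved as follows. From early to late, TG6 gave 3 with no filter and 3 with no trend, without Id3 (4 as reported), with 13.9% and 24.7% of all genes called (25.4% as reported). In early cells, OT-1 against F5 gave 2 with libraries scaled to the same total, 1 after quantile normalization, 1 without F5 replicate 1 and 1 without the other pair of libraries (0 as reported), with 13 to 17% of all genes (12.7%). In late cells, OT-1 against TG6 gave 1 with the same total, 1 in a fit of the groups alone and 1 without F5 replicate 1 (0), with 17.1 to 18.2% of all genes (15.5%), and OT-1 against F5 gave 2 with the same total (1), with 25% (24%). F5 against TG6 gave 0 with no filter, 0 with no trend, 0 in the groups alone and 2 without the pair of libraries (1), with 1.58 to 5.97% of all genes (4.97%). In mature cells, OT-1 against F5 gave 2 with a mean of at least 50, 3 with the same total, 2 after quantile normalization, 2 without F5 replicate 1 and 2 without the pair (1), with 19.4 to 31.5% of all genes (23.3%). F5 against TG6 gave 0 in the groups alone and 2 without F5 replicate 1 (1), with 2.11% and 5.7% (6.64%). In that fit of the groups alone Tcf4 was lost. From late to mature, TG6 gave 1 in the groups alone, with Id3 called and Tcf4 not, 2 with a mean of at least 50, 2 without F5 replicate 1 (1), with 3.85 to 31.6% of all genes (22.3%), and OT-1 gave 2 with the same total, 3 in the groups alone and 2 without F5 replicate 1 (1), with 24.7 to 26.4% (24.4%). In the difference of the early to late change, OT-1 against TG6 gave 0 with no filter, 0 with no trend, 2 in the lines alone and 2 without F5 replicate 1 (1), with 1.08 to 4.48% of all genes (2.04%), OT-1 against F5 gave 1 with a mean of at least 50 (0), with 2.81% (1.68%), and F5 against TG6 gave 1 without the pair (0), with 3.26% (2.08%). In that of the late to mature change, OT-1 against TG6 gave 1 without F5 replicate 1 (0), with 1.4% (1.17%).

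With the mouse as a replicate block, random then fixed, the late to mature step gave 2 and 2 in TG6 (1 without it), 0 and 2 in F5 (0) and 2 and 3 in OT-1 (1). Differences of the early to late change gave 2 and 2 for OT-1 against TG6 (1), 2 and 2 for OT-1 against F5 (0) and 1 and 1 for F5 against TG6 (0). Those of the late to mature change gave 0 and 1 for OT-1 against F5 (0) and 1 and 1 for F5 against TG6 (0). The fixed block also brought Tcf12 past the threshold from late to mature in F5 (-0.22, adjusted p = 0.023) and OT-1 (-0.20, adjusted p = 0.035), and Id2 in the late to mature difference of OT-1 and F5 (1.82, adjusted p = 0.0026). Of all genes, 27.3% and 24.5% were called in these fits from late to mature in TG6, 28.5% and 29.3% in F5 and 33.7% and 35% in OT-1, 4.28 to 4.81% in the differences of the early to late change, and 0.214 to 3.87% in those of the late to mature change. Beside these and the values given in the report, the block changed no other call of a member.

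Leaving out 1 library gave 3 to 4 members for TG6 from early to late, 1 to 2 members for OT-1 against TG6 in early cells, 0 to 1 for F5 against TG6 in late cells, 1 to 2 for each of OT-1 and TG6 against F5 in mature cells and 0 to 1 for OT-1 from late to mature. It gave 0 to 1 for OT-1 against TG6 and against F5 in the early to late difference, and 0 to 1 for OT-1 against F5 and F5 against TG6 in the late to mature difference. In the order of this list, the shares of all genes called in these fits ran from 16.1 to 21.9%, 19.7 to 24.3%, 2.29 to 4.65%, 13.9 to 24.6%, 5 to 8.62%, 17.5 to 20.7%, 0.678 to 1.7%, 0.837 to 2.11%, 0.495 to 1.38% and 0.0244 to 0.208%. Where a group was left with 1 library, that library was taken to vary as the other groups. The median share of Tcf12 in the E protein sum was 41.1% per kb of the longest transcript and 28.2% per kb of merged exons. Precision is limited by 2 or 3 mice per group, and raw depth is unknown.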
